A study of Eriocheir sinensis with 9 samples.

Results

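Eyestalk transcripts of the Chinese mitten crab, Eriocheir sinensis, were compared between the warmest and the coolest temperature analysed, 32 against 22 °C. The comparison takes 3 libraries at 32 °C and 3 at 22 °C, 6 of the 9 libraries of the series, and the other 3 come from 27 °C. All were labelled wild type and came from intermolt crabs acclimated at 25 °C. The protocol assigned 16 crabs to each of 3 parallel replicates per temperature. The sources used here do not give the length of exposure or how many crabs went into a library. Temperature was read from the library titles, because the treatment label of every library is the same word, untreated. The series' design text speaks of muscle, Illumina sequencing and an ATAC assay, whereas the sample labels give eyestalk, RNA and DNBSEQ. The eyestalk could not be checked against marker genes, because the table numbers its isoforms without naming genes, and 0 of the identifiers matched the gene table used here. Since a library may be 1 crab or a pool, the p-values reflect only how far these libraries spread, and that spread may be technical.

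Crabs are ectotherms, so the temperature of their tissues follows that of the water, and warming speeds metabolism and raises oxygen demand. The eyestalk combines the retina and optic neuropils with a neuroendocrine gland whose peptides act on moulting, reproduction, blood glucose and pigment movement. In animals generally, strong warming induces chaperones that refold damaged proteins. None of these gene classes could be looked up here, so the isoforms are described by abundance, size of change and pattern over libraries.

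The values are FPKM, fragments scaled to transcript length and library total, given by the authors for 267789 isoforms. Of these, 87394 reached 1 FPKM in at least 3 of the 6 libraries and were tested. Isoforms are rows of the deposited table and several may belong to 1 gene, so the number of genes behind a count is unknown. In bulk tissue, fewer cells of a type and less RNA per cell cannot be told apart.

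The 6 libraries did not form equally tight groups. The correlation of log2(FPKM + 1) over the isoforms tested, which come from the same libraries and are not replicates, averaged 0.759 over the 3 pairs within 32 °C and 0.799 over the 3 pairs within 22 °C. Across temperatures, in 9 pairs, it averaged 0.726, with a range of 0.704 to 0.762. Replicate 1 at 32 °C correlated at 0.739 and 0.751 with the other 32 °C libraries, whereas those correlated at 0.788 with each other. Replicate 3 at 22 °C stood nearest to the warm libraries, at 0.720, 0.738 and 0.762 with replicates 1, 2 and 3 at 32 °C. The same libraries stood out among the 100 most abundant isoforms of each library. Replicates 2 and 3 at 32 °C shared 83 of these 100, and replicates 1 and 2 at 22 °C shared 90. Replicate 1 at 32 °C and replicate 3 at 22 °C shared 80 although their temperatures differ, more than either shared with any other library of its own temperature. The 9 pairs across temperatures shared 48 to 80.

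**Figure D1:**
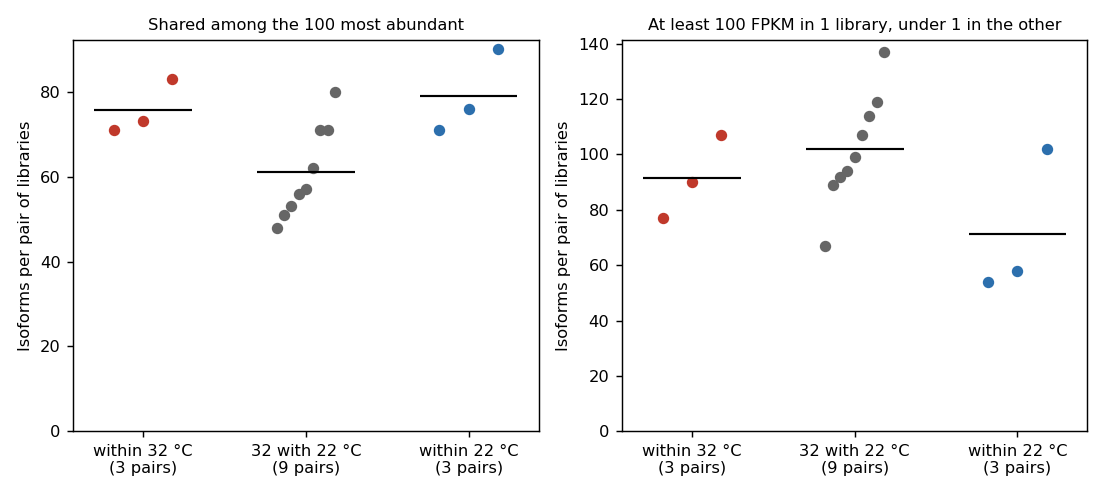
Pairs among the 6 libraries: the left panel counts isoforms shared between the 100 most abundant of each library, the right panel counts isoforms of at least 100 FPKM in 1 library and under 1 FPKM in the other. Points are pairs and bars are means; pairs across temperatures shared 61 of 100 on average, against 75.7 within 32 °C and 79 within 22 °C, and the ranges overlap in both panels.

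Abundant isoforms that were nearly missing from another library were common, within a temperature as well as across. A pair of a 32 and a 22 °C library held 67 to 137 isoforms with at least 100 FPKM in 1 and under 1 FPKM in the other, with a mean of 102. Pairs within 32 °C held 77 to 107, and pairs within 22 °C held 54 to 102. The ranges overlap, so the count of such switches in a single pair of libraries does not separate the temperatures. Across temperatures, an average of 60.6 of these isoforms (32 to 97) were on at 32 °C and 41.4 (28 to 59) were on at 22 °C. The direction differed between pairs. More were on at 22 °C in each pair with replicate 1 at 32 °C, and between replicate 2 at 32 °C and replicate 3 at 22 °C.

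Summary measures of the deposited values did not separate the temperatures either. The effective number of isoforms, the exponential of the Shannon entropy of FPKM shares, grows as abundance is spread more evenly. It was 3656, 6676 and 5427 in replicates 1, 2 and 3 at 32 °C, and 3123, 3345 and 4347 at 22 °C. Replicate 1 at 32 °C lay within the range of the 22 °C libraries, and the other 32 °C libraries lay above it. It averaged 5253 ± 1518 for 32 °C, against 3605 ± 652 for 22 °C (SD, n = 3 each; two-sided exact permutation p = 0.2). Libraries at 32 °C held 1623 ± 58.9 isoforms of at least 100 FPKM, against 1568 ± 27.6 in libraries at 22 °C (SD, n = 3 each; two-sided exact permutation p = 0.3). Over the 5 measures compared, which also covered isoforms above 0 FPKM, isoforms of at least 10 FPKM and the share of the 10 most abundant, exact p ran from 0.2 to 0.4, and each was 0.4 after Benjamini-Hochberg adjustment. With 3 against 3 libraries this test cannot go below 0.1. Counts over a fixed threshold depended on the scaling. After rescaling to TPM, isoforms of at least 100 were more by a mean of 87.7 at 32 °C, with no overlap between the temperatures (exact permutation p = 0.1). Summed FPKM ran from 1704920 to 2227270 per library, above the total that TPM gives every library. A cutoff of 100 TPM is therefore stricter than 100 FPKM, so the cutoff changed along with the scaling. After median-of-ratios scaling, isoforms of at least 10 were fewer at 32 °C with no overlap, at a mean difference of -1037.7 (exact permutation p = 0.1). Leaving out replicate 1 at 32 °C gave an exact p of 0.1 for the effective number of isoforms and for the isoforms of at least 100 FPKM, both then higher at 32 °C. Leaving out replicate 2 at 32 °C gave the same p for the share of the 10 most abundant, also higher at 32 °C. With 2 against 3 libraries 0.1 is again the lowest possible p. For all other measures and libraries left out, exact permutation p ran from 0.2 to 0.8.

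Relative to 22 °C, 412 isoforms rose at 32 °C while 456 fell. These 868 were 0.993% of those tested, 0.471% for the rises and 0.522% for the falls, by limma's moderated test with a Benjamini-Hochberg adjusted p below 0.05. Group means of the rises had a median of 7.71 FPKM at 32 °C, against 0.347 FPKM at 22 °C. Group means of the falls had a median of 0.150 FPKM at 32 °C, against 7.53 FPKM at 22 °C. Most of the called isoforms were thus at or near 0 at one temperature and of low to middling abundance at the other. The filter bears on this pattern. It admitted 251 of the rises only through the libraries at 32 °C and 307 of the falls only through those at 22 °C, so these had to differ to be tested. The median change was 2.12 among the rises and -2.28 among the falls on the log2(FPKM + 1) scale, which understates changes of isoforms near or below 1 FPKM. The smallest absolute change called was 1.06. A change of at least 3 on that scale was found in 100 rises and 125 falls, and of at least 5 in 15 rises and 21 falls.

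**Figure D2:**
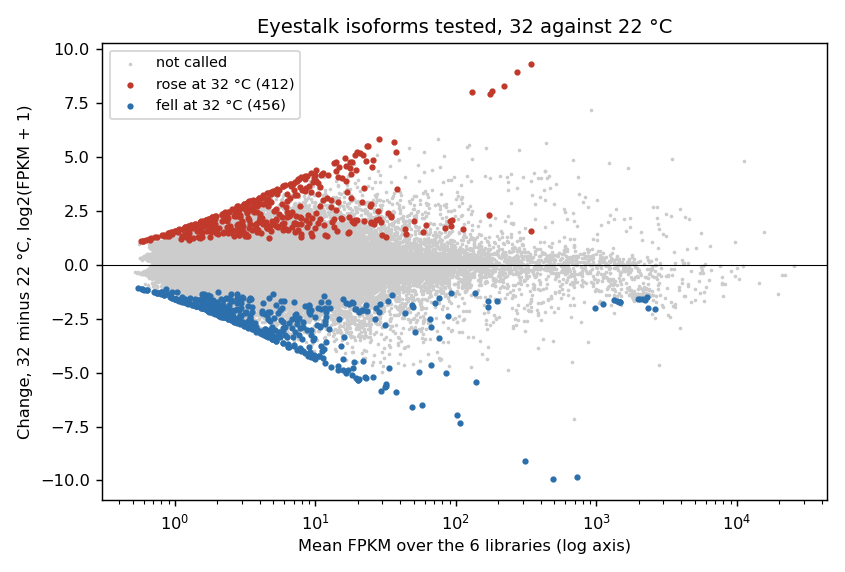
Each point is 1 of the 87394 isoforms tested, with its mean FPKM over the 6 libraries (log axis) and its change at 32 relative to 22 °C on the log2(FPKM + 1) scale. The 412 rises and 456 falls lie mostly along the outer edges, where isoforms are at or near 0 at one temperature, with a separate cluster of 13 falls above 1000 FPKM.

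In all 868 isoforms called, the 3 values at one temperature lay above the 3 at the other. That alone was frequent, since 24.6% of all isoforms tested had groups that did not overlap, 15.6% higher at 32 °C and 9.01% lower. Size and overlap together did not set the calls. Groups that did not overlap and differed by at least 2 on the log2(FPKM + 1) scale were found in 1672 isoforms, or 1.91% of those tested, and 529 of these were called. The median standard error of the change was 0.290 in the 529 and 0.628 in the 1143 that were not called. Of these 1143, 563 were higher and 580 lower at 32 °C.

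The direction balance depended on the scaling and on the libraries used. Rises made up 47.5% of the calls as deposited, 53.2% after rescaling to TPM, 39.8% after median-of-ratios scaling and 42.8% after quantile normalization, so among these 4 scalings falls were the more frequent except in TPM. TPM values are smaller than the FPKM here, so the 1 added before taking logs also weighs more in TPM. Median-of-ratios scaling lowered the median change of all isoforms tested by 0.12, to -0.025, against 0.096 as deposited. The number of calls fell whichever library was left out. It was 279 without replicate 1 at 32 °C, 158 without replicate 2 and 157 without replicate 3, with 47.0, 44.9 and 43.3% rises. It was 88, 98 and 320 without replicates 1, 2 and 3 at 22 °C, with 33.0, 29.6 and 44.1% rises. A fit with 1 library fewer also has less power, and its part in the loss was not tested. At an unadjusted limma p below 0.05 these fits held 10860 to 13996 isoforms, against 14570 with all 6 libraries. With the 27 °C libraries in the fit rises made up 55.0%. Without replicate 1 at 32 °C and replicate 3 at 22 °C together, a setting added after the data were seen, 2 rises and 0 falls passed limma at the adjusted threshold. Of the 868 calls 0 were among them, and 13904 isoforms had an unadjusted p below 0.05.

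**Figure D3:**
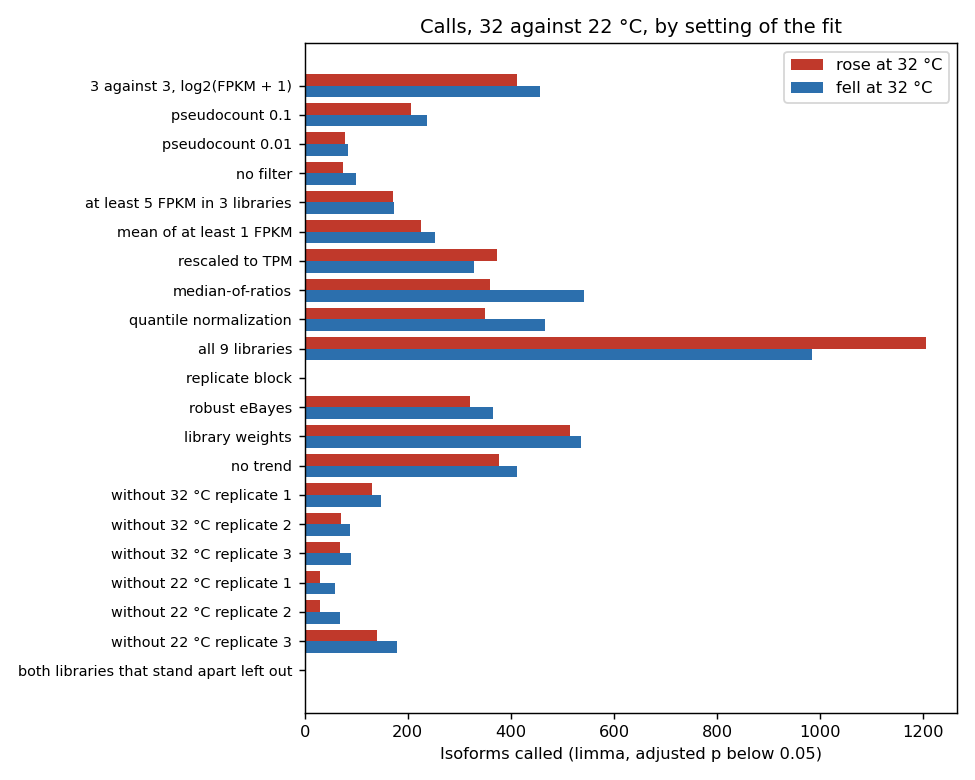
Isoforms that rose and fell at 32 relative to 22 °C under each setting of the limma fit, as bars from 0. The top row is the comparison as described, with 412 rises and 456 falls; every fit with a library left out called fewer, from 88 to 320 in all, and adding the 27 °C libraries gave 1206 rises and 985 falls.

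Some isoforms were on at only one of the temperatures compared, 32 and 22 °C. At 0 FPKM in all 3 libraries at 22 °C and at least 1 FPKM in all 3 at 32 °C were 201 isoforms, or 0.230% of those tested, with a median of 4.64 FPKM at 32 °C. The converse, at 0 in all libraries at 32 °C and at least 1 FPKM in all at 22 °C, held for 241, or 0.276%, with a median of 4.95 FPKM at 22 °C. Of these, 118 and 171 passed the limma test, which is 28.6% of the rises and 37.5% of the falls. Most were scarce: 23 of the 201 reached 10 FPKM in every 32 °C library and 3 reached 100, and of the 241, 30 reached 10 FPKM in every 22 °C library and 2 reached 100. An isoform listed at 0 can be a failed estimate, and zeros beside high values also occurred among replicates. At least 10 FPKM in 1 library and 0 in another of the same temperature was found for 2278 of the isoforms tested within 32 °C and for 1805 within 22 °C. The filter itself admitted 2177 isoforms only through the 3 libraries at 32 °C and 1285 only through those at 22 °C. Such isoforms had to differ to be tested, and 251 and 307 of them were called. Among the 45861 isoforms with at least 1 FPKM in all 6 libraries, 105 rose and 90 fell.

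The libraries at 27 °C, which the fit did not use, give the level of these on-off isoforms at the temperature between. Of the 201 that were on at 32 °C, 45 had at least 1 FPKM in all 3 libraries at 27 °C and 31 were at 0 in all 3. Of the 241 that were on at 22 °C, 24 had at least 1 FPKM in all libraries at 27 °C and 71 were at 0 in all. For the 412 rises the median of the group means was 0.347 FPKM for 22 °C, 3.41 FPKM for 27 °C and 7.71 FPKM for 32 °C. For the 456 falls it was 7.53 FPKM for 22 °C, 1.68 FPKM for 27 °C and 0.150 FPKM for 32 °C. The 27 °C mean lay between the others in 360 of the 412 rises and 406 of the 456 falls, whereas it did so in 38.3% of all isoforms tested. Isoforms were called for being far apart at 22 and 32 °C, which leaves more room between these means, so the shares are not compared by a test.

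Among the most abundant isoforms falls outnumbered rises under each scaling, but not in every other setting. In the class averaging 200 FPKM or more over the 6 libraries, 4 of 1059 isoforms rose and 17 fell, and the share called was 1.98%. In the class under 2 FPKM, 98 of 29270 rose and 114 fell, with 0.724% called. From 2 to 10 FPKM 214 rose and 233 fell, or 1% called, from 10 to 50 FPKM 84 rose and 73 fell, or 1.44%, and from 50 to 200 FPKM 12 rose and 19 fell, or 1.84%. Falls also outnumbered rises at 200 FPKM and above after rescaling to TPM, with 22 against 6, after median-of-ratios scaling, with 16 against 4, and after quantile normalization, with 20 against 6. Without replicate 1, 2 or 3 at 32 °C, falls against rises in that class were 4 against 5, 4 against 3 and 3 against 2. Without replicate 1, 2 or 3 at 22 °C they were 3 against 2, 3 against 2 and 23 against 8. With a pseudocount of 0.1 they were 5 against 4 and with 0.01 2 against 4, and without both replicate 1 at 32 °C and replicate 3 at 22 °C 0 against 2, so rises were the more frequent in 3 of these settings. Shares of groups that did not overlap also differed between the classes. Under 2 FPKM, 15.3% of isoforms were higher and 7.34% lower at 32 °C without overlap, and at 200 FPKM and above 13.9% were higher and 24.3% lower. In that top class the shares were 21.2% higher and 22.0% lower after rescaling to TPM, 7.08% and 28.1% after median-of-ratios scaling, and 18.3% and 22.3% after quantile normalization. The median change in the class of 200 FPKM and above was -0.16 as deposited and -0.33 after median-of-ratios scaling, but 0.040 in TPM and 0.028 after quantile normalization.

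The isoforms of 200 FPKM and above held 69.0, 58.4 and 62.3% of summed FPKM in replicates 1, 2 and 3 at 32 °C, and 72.2, 70.5 and 67.1% at 22 °C. Replicates 2 and 3 at 32 °C lay below every 22 °C library, and replicate 1 at 32 °C lay among them. The 32 °C libraries averaged 63.3% ± 5.37, against 69.9% ± 2.60 for the 22 °C libraries (SD, n = 3 each). Dividing a library by a factor, as TPM and median-of-ratios scaling do, leaves this share as it is. It was not computed after quantile normalization.

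**Figure D4:**
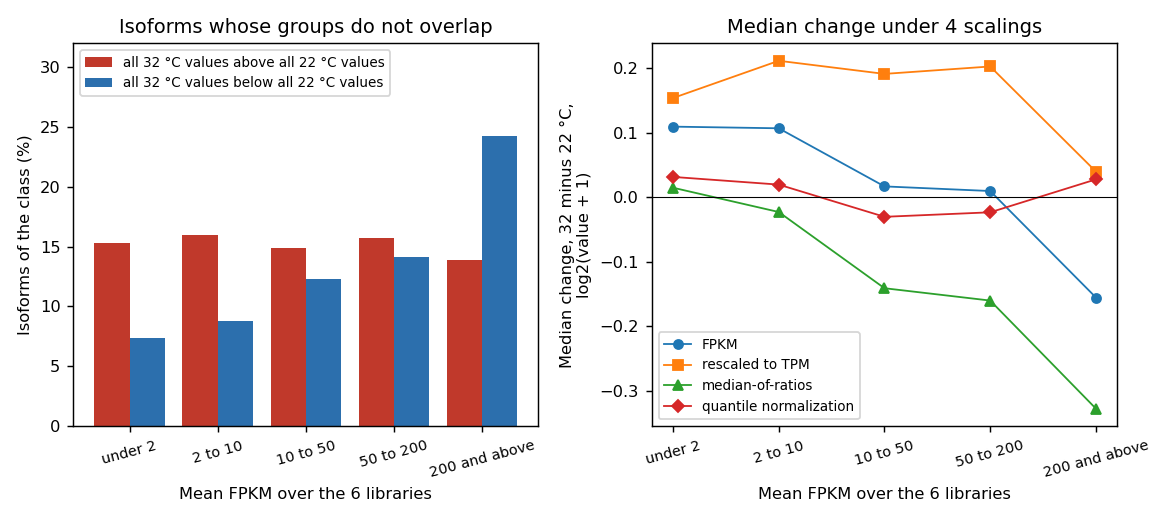
The tested isoforms in 5 classes of mean FPKM over the 6 libraries. Left, the percentage of each class whose 32 °C values all lie above, or all below, the 22 °C values: lower isoforms make up 7.34% under 2 FPKM and 24.3% at 200 FPKM and above. Right, the median change at 32 relative to 22 °C under 4 scalings, which is above or below 0 in the top class depending on the scaling.

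Lower values were also frequent above 1000 FPKM, a cutoff chosen after the data were seen. Of the 391 isoforms there, 111 (28.4%) were lower at 32 °C by at least 1 on the log2(FPKM + 1) scale with no overlap between groups, and 8 (2.05%) were higher by as much. Among all isoforms tested the same criteria held for 3.76% lower and 4.51% higher. The counts were 92 lower and 10 higher after rescaling to TPM, 123 and 5 after median-of-ratios scaling, and 51 and 9 after quantile normalization. The change of the 111 isoforms had a median of -1.43 and an interquartile range of -1.64 to -1.32, a range that their choice cuts off at -1. Together they held 9.09, 6.82 and 7.02% of summed FPKM in replicates 1, 2 and 3 at 32 °C, and 19.9, 20.7 and 14.1% at 22 °C, shares that follow from how they were chosen. At 27 °C they held 9.98, 9.95 and 8.49%. These values lay near those at 32 °C, beside 22 °C values that were chosen for being high. Within 22 °C, replicate 3 was the lowest library in 108 of the 111 (97.3%), in 53.9% of the other 280 isoforms above 1000 FPKM and in 28.3% of all isoforms tested. Within 32 °C, replicate 1 was the highest library in 94 of the 111 (84.7%), in 68.9% of the other 280 and in 30.0% of all tested.

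Of the 111, 13 passed the limma test, and no isoform above 1000 FPKM rose in the deposited values. At an unadjusted p below 0.05, limma found 151 of the 391 lower and 15 higher at 32 °C, where 6.4% of all isoforms tested were lower and 10.3% higher at that threshold. The 13 falls spanned 462 to 1280 FPKM in the 32 °C libraries and 1184 to 5097 FPKM in the 22 °C libraries, and their 27 °C values ran from 327 to 1361 FPKM. Their changes lay between -2.06 and -1.50 on the log2(FPKM + 1) scale, with standard errors of 0.207 to 0.261 and adjusted p of 0.0348 to 0.0496 (limma, Benjamini-Hochberg), all near the threshold. None of the 391 fell in limma when any 32 °C library, or the first or second library at 22 °C, was left out. In these fits 116 to 212 were lower and 4 to 17 higher at an unadjusted p below 0.05, where 4.82 to 6.35% of all isoforms tested were lower and 7.37 to 9.95% higher. Without replicate 3 at 22 °C 18 fell and 3 rose, and with the 27 °C libraries in the limma fit 82 fell and 2 rose. Without both replicate 1 at 32 °C and replicate 3 at 22 °C, 0 fell and 2 rose, and 213 were lower and 23 higher at an unadjusted p below 0.05, where 5.63% of all isoforms tested were lower and 10.3% higher.

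Among the called isoforms with at least 1 FPKM in all 6 libraries, 105 rises and 90 falls, the 2 with the largest change in each direction are given by identifier. They carry no gene name, so nothing can be said of their function. Isoform_68514 had 5.33, 2.63 and 4.39 FPKM in replicates 1, 2 and 3 at 32 °C, against 162, 221 and 110 FPKM at 22 °C. The lowest 22 °C value was far above the highest 32 °C value, and the 22 °C mean was 40.0 times the 32 °C mean. The change was -5.00 with a standard error of 0.354 on the log2(FPKM + 1) scale (limma, Benjamini-Hochberg adjusted p = 0.00930). At 27 °C it stood at 9.93, 9.31 and 9.47 FPKM, with little spread, above all 32 °C libraries but nearer to them than to the 22 °C libraries. Of the 4 isoforms it was the one whose call held in the most settings, 17 of 20.

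Isoform_61472 had 5.07, 3.86 and 4.09 FPKM at 32 °C, against 337, 388 and 95.4 FPKM at 22 °C. Replicate 3 was the low 22 °C library, and still lay above all 32 °C libraries. The change was -5.46 with a standard error of 0.558 on the log2(FPKM + 1) scale (limma, Benjamini-Hochberg adjusted p = 0.0225). At 27 °C it stood at 67.7, 96.2 and 166 FPKM, a range that takes in the low 22 °C library. Isoform_61472 and isoform_68514 thus stood at like levels at 32 °C and at different levels at 27 °C. Their difference at 27 °C was not tested.

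Isoform_300682 had 19.8, 63.3 and 42.1 FPKM at 32 °C, against 2.59, 2.91 and 1.41 FPKM at 22 °C. The 32 °C values spread widely, and the lowest of them, in replicate 1, exceeded every 22 °C value. The mean was 41.7 ± 21.8 FPKM at 32 °C and 2.30 ± 0.790 FPKM at 22 °C (SD, n = 3 each), and the change was 3.58 with a standard error of 0.463 on the log2(FPKM + 1) scale (limma, Benjamini-Hochberg adjusted p = 0.0386). At 27 °C it had 35.1, 20.3 and 31.3 FPKM, within the range of the 32 °C libraries. Isoform_84102 had 42.0, 100 and 69.1 FPKM at 32 °C, against 3.71, 6.05 and 5.12 FPKM at 22 °C. Replicate 1 was again the lowest 32 °C library, and the groups did not overlap. The mean was 70.5 ± 29.3 FPKM at 32 °C and 4.96 ± 1.18 FPKM at 22 °C (SD, n = 3 each), and the change was 3.52 with a standard error of 0.370 (limma, Benjamini-Hochberg adjusted p = 0.0248). At 27 °C it had 13.6, 18.6 and 11.8 FPKM, above all 22 °C and below all 32 °C libraries.

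**Figure D5:**
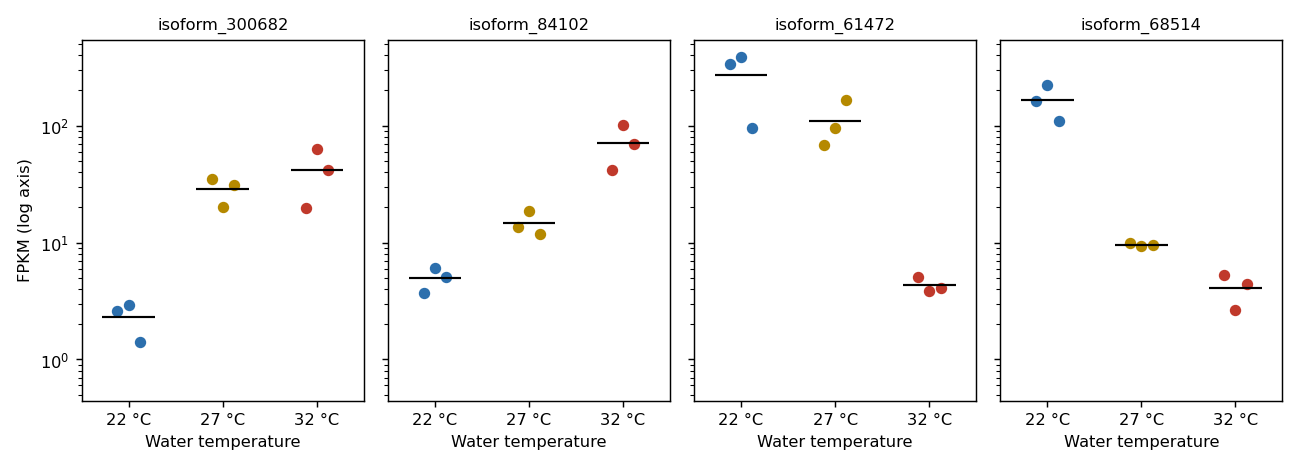
FPKM (log axis) of the 4 isoforms in each library at 22, 27 and 32 °C; points are libraries in the order of their replicate numbers and bars are group means. In each panel the 22 and 32 °C libraries do not overlap. The 27 °C libraries lie within the 32 °C range for isoform_300682 and overlap 22 °C for isoform_61472. For isoform_68514 they lie above all 32 °C libraries but nearer to them than to 22 °C.

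The spread between replicates was somewhat wider at 32 °C. Replicate 1 at 32 °C correlated less with the other libraries of its temperature than they did with each other. Its part in the wider spread was not tested. The median SD of log2(FPKM + 1) over the isoforms tested was 0.383 at 32 °C and 0.340 at 22 °C, and 55.2% of isoforms had the larger SD at 32 °C. At 200 FPKM and above the medians were 0.381 at 32 °C and 0.251 at 22 °C. The called isoforms had low spread at both temperatures, with medians of 0.196 at 32 °C and 0.206 at 22 °C, as the test favours. These are descriptions with no test, since isoforms of the same library are not independent.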

How the data were processed

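Per the labels' protocols, eyestalk RNA was extracted with Trizol and DNBSEQ was the sequencing platform, whereas the series' design text names Illumina instruments. The authors deposited FPKM values, 1 column per library, per the file headers. Per the submitters' processing notes, Bowtie2 and RSEM were used, with no version named. The sources used here do not give the transcript set, genome build, filters or read totals, so depth is unknown and no interval that needs counts is given. RSEM can divide reads between similar isoforms, and abundant transcripts shift all other FPKM of a library. Columns were matched to libraries by name, and 0 were left unused. No libraries held identical values.

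Isoforms reaching 1 FPKM in 3 or more of the 6 libraries at 32 and 22 °C were tested on log2(FPKM + 1) with limma 3.58.1 in R 4.3.3, two-sided, variance trended on abundance, with an adjusted p below 0.05 as threshold. The estimated prior degrees of freedom were 1.97. Libraries were not treated as paired. Alternatives covered pseudocount, filter, scaling, variance model, block and the libraries used. Named isoforms were the 2 largest rises and falls among calls with at least 1 FPKM in all 6 libraries and no overlap. The comparison, classes and rules were chosen with earlier results of these data known, and the groups above 1000 FPKM and those low or high in 1 library after these values were seen.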

Additional observations from a re-analysis of the deposited data

How the results depend on the processing

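The 868 calls (412 rises, 456 falls) became 443 (206 and 237) with a pseudocount of 0.1, 162 (78 and 84) with 0.01, 174 (74 and 100) with no filter, 344 (171 and 173) with at least 5 FPKM in 3 libraries, 478 (225 and 253) with a mean of at least 1 FPKM, and 2191 (1206 and 985) with the 27 °C libraries in the fit. Leaving out 1 library at a time gave 88 to 320 calls, with 29 to 141 rises and 59 to 179 falls. Leaving out replicate 1 at 32 °C and replicate 3 at 22 °C together gave 2 calls, 2 rises and 0 falls, with 0 of the 868 among them. TPM, median-of-ratios, quantile normalization, robust and weighted variance and no trend stayed within 1.5 times, at 686 to 1051 calls. With a replicate block limma called 0 isoforms, 0 rises and 0 falls, with 12186 at an unadjusted p below 0.05. Deviations of same-numbered libraries correlated at 0.024, 0.0020 and 0.012, under the 0.1 taken as pairing. Replicates 2 and 3 at 32 °C each correlated best with another number. The labels name no tank or day shared by libraries of the same number, and such sharing was not tested. Isoform_300682 lost its call in 11 of 20 settings, isoform_84102 and isoform_61472 in 8 each and isoform_68514 in 3. Their changes kept their sign, at 3.21 to 4.09, 3.22 to 3.87, -6.19 to -5.05 and -5.43 to -4.58 on the log2 scale. After median-of-ratios scaling, isoforms of at least 10 FPKM were fewer at 32 °C by a mean of -1037.7 (exact permutation p = 0.1) and those of at least 100 FPKM by -80.7 (exact p = 0.3), where the deposited values gave 699.7 and 54.7 more. Switches between libraries at 50 against 0.5 FPKM averaged 252 per pair across temperatures and 203 within. The cause of these shifts was not tested.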

Other observations

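A group of abundant isoforms was nearly missing from a single library. In replicate 2 at 22 °C, 20 isoforms stood at 0 to 179 FPKM, each at least 10 times below its lowest value in the other 5 libraries, where they ran from 552 to 7803 FPKM. They held 0.0399% of summed FPKM in that library and 3.13% on average in the other 5, and at 27 °C they ran from 262 to 5159 FPKM. By the same rule over these 6 libraries, 2 isoforms were low in replicate 2 at 32 °C alone, 1 in replicate 1 at 32 °C, and 0 in each of the other 3 libraries. At 27 °C the 2 of replicate 2 ran from 501 to 2510 FPKM. The 1 of replicate 1 was low at 27 °C too, at 0 to 127 FPKM. None of the 20 was called between 32 and 22 °C. Of the 391 isoforms above 1000 FPKM, 34 were higher at 32 °C by at least 1 on the log2(FPKM + 1) scale, and 19 of these 34 were among the 20. Without replicate 2 at 22 °C 13 were higher by as much, and 0 of the 20 were among them.

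Other isoforms were high in a single library of the 6 compared. In replicate 1 at 32 °C, 6 isoforms stood at 680 to 8171 FPKM and at no more than 61.3 FPKM in any of the other 5 libraries. At 27 °C these 6 ran from 0 to 1871 FPKM, so high values were not confined to that library of the series. Replicate 3 at 32 °C had 1 such isoform, which ran from 0.21 to 300 FPKM at 27 °C, and the other 4 libraries had 0.

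The most abundant isoform with a range of at least 100-fold inside both temperatures, chosen after its values were seen, was isoform_82415. It had 11.5, 29791 and 30569 FPKM in replicates 1, 2 and 3 at 32 °C, against 8.42, 6.75 and 6591 FPKM at 22 °C. The 27 °C libraries had 7008, 20284 and 5872 FPKM of it. Its lowest libraries included 1 from 32 °C, and it was not called (limma, Benjamini-Hochberg adjusted p = 0.603). Of 1590 isoforms averaging at least 100 FPKM, 35 had such a range inside both temperatures, 67 inside 32 °C and 72 inside 22 °C.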
